A study of Homo sapiens with 9 samples.

Results

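H358 cells in which BRG1 had been knocked out were compared with the parental H358 line. H358 is an established human lung adenocarcinoma line of bronchioloalveolar type, and BRG1 is the protein of the SMARCA4 gene. The comparison takes the 3 BRG1-knockout libraries and the 3 parental libraries, 6 of the 9 libraries of the series. The other 3 libraries are H358 cells with a knockout of BRM, the protein of SMARCA2, and they entered the fit to share 1 estimate of spread and served for direct tests between the knockouts. Every group was cultured in RPMI with 10% fetal bovine serum, the knockouts were made with CRISPR, and total RNA was sequenced. The labels do not say whether a knockout group is 1 clone or a pool of edited cells, nor whether replicates are separate cultures. The p-values therefore measure only how far these libraries spread, and that spread may be technical.

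A SWI/SNF complex carries either BRG1 or BRM as its motor, and it uses ATP to slide or evict nucleosomes and so open promoters and enhancers to transcription factors. BRG1-containing complexes act at many enhancers that keep an epithelial cell in its differentiated state. SMARCA4 is recurrently lost in lung adenocarcinoma, where such tumours are often poorly differentiated.

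The targeted gene was checked first. SMARCA4 (ENSG00000127616.18, chr19:10960825-11079426 of hg38, plus strand) stood at 73.2, 66.4 and 62.5 TPM in parental replicates 1, 2 and 3. It stood at 10.3, 8.54 and 9.23 TPM in BRG1-knockout replicates 1, 2 and 3, where TPM is a share of all transcripts that takes gene length into account. The 3 knockout libraries lay close together and far below the parental libraries, and replicate 3 lay between replicates 1 and 2. The log2 fold change was -3.29 ± 0.14 (standard error, n = 3 and 3; edgeR adjusted p = 4.1e-07), and SMARCA4 in the BRM-knockout libraries stood at 70.8, 74.8 and 71.7 TPM. SMARCA2, the alternative ATPase, measured 16.2, 31.3 and 27.0 TPM in parental and 20.4, 12.02 and 29.1 TPM in knockout cells, groups that overlapped, and it did not pass the test (log2 fold change -0.26 ± 0.22, edgeR adjusted p = 0.35). Without knockout replicate 3 SMARCA2 passed as lower.

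A gene was called changed when its edgeR adjusted p lay under 0.05. Fold changes come from read counts and can differ from ratios of the TPM values printed beside them, which also depend on transcript length. Of 18205 genes tested, 7914 were called, which is 43.5% of all genes, with 3930 that rose (21.6%) and 3984 that fell (21.9%). The counts in each gene list below are to be read against these shares. The median log2 fold change was 1.29 among genes that rose and -1.35 among genes that fell, against -0.01 over all genes tested. Of the risers 1172 changed by at least 2 log2 units and 305 by at least 4, and of the fallers 1343 and 440. The depth was 31969961 to 40172192 estimated reads in parental and 34676466 to 39448251 in BRG1-knockout libraries. CPM did not overlap between the 3 knockout and 3 parental libraries for 9689 genes (53.2%). Among called genes this held for 3763 of the 3930 that rose and 3884 of the 3984 that fell. A lack of overlap in a called gene therefore adds little to its call. Reads of ribosomal protein genes made up 9.95%, 10.5% and 5.71% of knockout replicates 1, 2 and 3 and 4.86% to 5.69% of parental libraries.

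Among subunits of the SWI/SNF complexes, 6 of 29 tested members rose, 5 fell and 18 did not pass, with a median log2 fold change of -0.03. With 37.9% called, the subunits as a list did not change more often than all genes (43.5%). SMARCD3, an accessory subunit best known from muscle and heart, measured 1.63, 0.694 and 0.4998 TPM in parental and 14.3, 13.7 and 13.2 TPM in knockout cells (log2 fold change 4.25 ± 0.43, edgeR adjusted p = 3.2e-05). DPF3, a subunit that reads acetylated histones, measured 0.141, 0.168 and 0.237 TPM against 1.49, 0.496 and 1.53 TPM (log2 fold change 2.78 ± 0.45, edgeR adjusted p = 6.6e-04). Both subunits were higher in every knockout library than in any parental library. BCL7A, a small core subunit, measured 6.45, 5.02 and 5.50 TPM against 2.10, 2.12 and 1.36 TPM (log2 fold change -1.03 ± 0.32, edgeR adjusted p = 0.024). The BCL7A call was lost without parental replicate 1, without parental replicate 3 and in a fit of the 6 libraries only. Leaving out knockout replicate 3 raised the number of subunits that fell from 5 to 11, and leaving out parental replicate 3 lowered it to 3. Outside SWI/SNF, SMARCA1, the ATPase of an ISWI remodeller, rose from 13.5, 12.6 and 10.8 TPM to 64.2, 48.2 and 61.9 TPM (log2 fold change 2.44 ± 0.16, edgeR adjusted p = 2.6e-06).

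**Figure D1:**
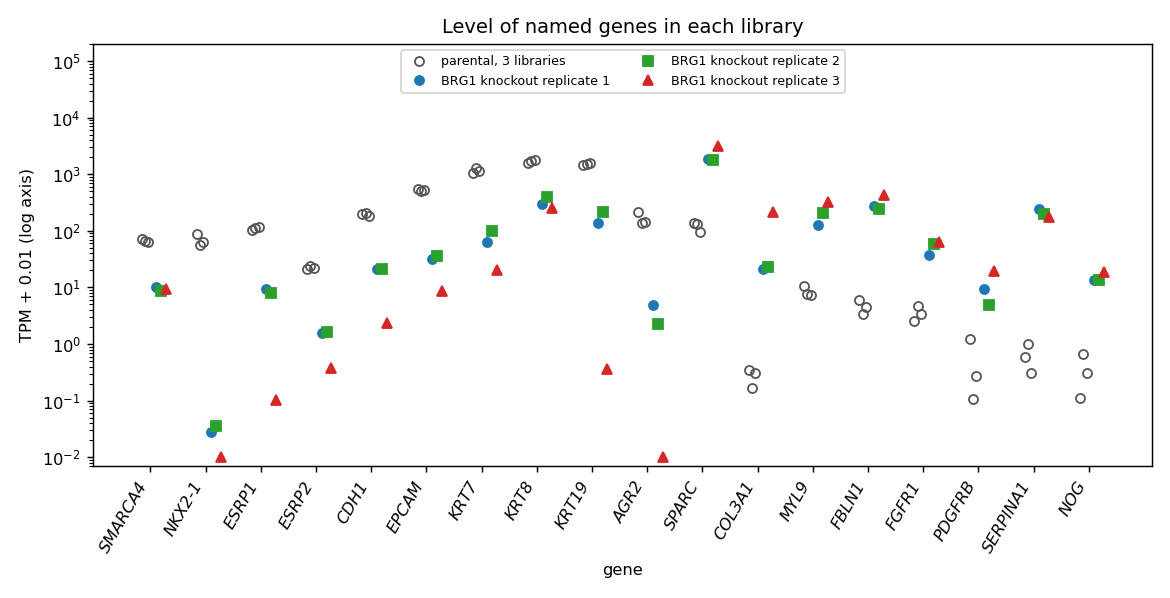
TPM plus 0.01 on a log axis for 18 genes, with open circles for the 3 parental libraries and filled symbols for BRG1-knockout replicates 1, 2 and 3. SMARCA4 sits at 8.54 to 10.3 TPM in all 3 knockout libraries, while replicate 3 lies lowest for CDH1 (2.34 TPM), KRT19 (0.357 TPM) and AGR2 (0 TPM) and highest for COL3A1 (216 TPM).

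The lung epithelial label of the cells was checked against 10 markers. In parental cells their summed level was 6447 to 6570 CPM (read counts scaled to library size), although SFTPB, a surfactant gene, was near 0 in every library. In BRG1-knockout cells the sum was 880, 1306 and 445 CPM in replicates 1, 2 and 3, and 7 of 9 tested markers fell, none rose and 2 did not pass. In bulk RNA, fewer cells of a type and less RNA per cell cannot be told apart. NKX2-1 (ENSG00000136352.17, chr14:36516392-36521149, minus strand), the transcription factor that defines lung epithelium, measured 88.4, 56.1 and 63.3 TPM in parental cells and 0.0181, 0.0250 and 0 TPM in knockout cells. Its reads fell from 8942 in the 3 parental libraries to 2 in the 3 knockout libraries, a ratio of 4333 scaled for library size, with a 95% interval of 1199 to 35790 that covers counting error only. EPCAM, an epithelial adhesion molecule, measured 550.3, 503 and 519 TPM against 32.3, 35.9 and 8.66 TPM (log2 fold change -4.09 ± 0.52, edgeR adjusted p = 2.2e-04). Every knockout library lay below every parental library in both genes.

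Epithelial transcription factors fell as a group: 19 of 31 tested members fell, 2 rose (ONECUT3 and CEBPD) and 10 did not pass, with a median log2 fold change of -2.09. The number that rose was 0 without parental replicate 2, parental replicate 3 or knockout replicate 1, and 1 without knockout replicate 2 or any 1 BRM-knockout library. EHF, an ETS factor of glandular epithelium, measured 12.7, 8.91 and 10.97 TPM in parental and 0.0725, 0.308 and 0 TPM in knockout cells (log2 fold change -7.65 ± 0.50, edgeR adjusted p = 2.5e-06). SOX21, a factor of airway epithelium, measured 14.5, 14.9 and 13.5 TPM against 0.375, 0.0914 and 0.0157 TPM (log2 fold change -6.25 ± 0.62, edgeR adjusted p = 3.6e-05). For GRHL2, a grainyhead factor that maintains epithelial junction genes, the levels were 39.6, 43.3 and 45.4 TPM against 1.96, 1.74 and 0.0315 TPM (log2 fold change -4.73 ± 0.88, edgeR adjusted p = 0.0021). The knockout libraries were low in each of these factors, and replicate 3 was the lowest. Among the factors that fell, the median level was 12.9%, 8.59% and 5.21% of the parental mean in replicates 1, 2 and 3, and replicate 3 was the lowest of the knockout libraries in 14 of 19. Over all 3984 genes that fell the medians were 38.25%, 35.51% and 41.2%. Replicate 3 was the lowest in 1381 of these and the highest in 1511.

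Genes of tight junctions, desmosomes and cell polarity, the machinery that holds epithelial cells in a sheet, were lower. Of 41 members 37 fell, 1 rose and 3 did not pass, with a median log2 fold change of -2.98. RAB25, a small GTPase of apical recycling, measured 181, 144 and 153 TPM in parental and 8.74, 12.1 and 0.239 TPM in knockout cells (log2 fold change -4.25 ± 0.88, edgeR adjusted p = 0.0039). MAL2, an apical transport protein, measured 286, 269 and 305 TPM against 13.5, 10.6 and 0.0309 TPM (log2 fold change -4.63 ± 1.14, edgeR adjusted p = 0.0092), a call that was lost with no filter on low counts. E-cadherin, CDH1, measured 199, 205 and 181 TPM against 20.9, 20.7 and 2.34 TPM (log2 fold change -3.20 ± 0.71, edgeR adjusted p = 0.0055). In these genes replicates 1 and 2 kept about the same low level and replicate 3 stood well below them. The median of the members that fell was 13.2%, 13.5% and 4.398% of the parental mean in replicates 1, 2 and 3. Replicate 3 was the lowest in 29 of 37, against 1381 of the 3984 genes that fell. The riser was AMOT, an angiomotin of the cell cortex, at 0, 0.0514 and 0.00508 TPM in parental and 0.737, 0.300 and 2.79 TPM in knockout cells (log2 fold change 7.05 ± 0.80, edgeR adjusted p = 6.7e-05).

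Keratins are the intermediate filaments of epithelia. Of 21 tested keratin and basal genes 14 fell, 5 rose and 2 did not pass, with a median of -2.29. KRT7, a keratin of simple epithelium, measured 1072, 1266 and 1153 TPM against 64.6, 101 and 20.3 TPM (log2 fold change -3.99 ± 0.55, edgeR adjusted p = 3.4e-04). KRT8, its partner in simple epithelia, measured 1599, 1730.4 and 1772 TPM against 294, 391 and 252 TPM (log2 fold change -2.29 ± 0.26, edgeR adjusted p = 6.1e-05). KRT19 stood at 1470.4, 1501 and 1597 TPM in parental cells and at 136, 217 and 0.357 TPM in knockout cells, and it did not pass (log2 fold change -3.38 ± 1.28, edgeR adjusted p = 0.058), although no knockout library overlapped the parental ones. KRT19 passed as lower without knockout replicate 3 and in replicate 3 alone. The risers included KRT17 and KRT16, keratins of wounded epithelium. KRT17 measured 0.568, 0.510 and 0.477 TPM in parental and 41.4, 88.8 and 6.07 TPM in knockout cells (log2 fold change 6.74 ± 1.02, edgeR adjusted p = 6.9e-04). KRT16 measured 0.579, 1.43 and 0.884 TPM against 13.3, 26.3 and 0.344 TPM (log2 fold change 4.29 ± 1.24, edgeR adjusted p = 0.019), so that replicate 3 lay below the parental libraries, where replicates 1 and 2 lay above them. The KRT16 call was lost in 8 of 20 alternatives, among them leaving out any 1 parental library or knockout replicate 2. KRT16 and KRT17 have near-identical copies whose reads may be split. The copies KRT16P2, KRT16P1 and KRT16P3 fell, from 659, 132 and 44 reads over the parental libraries to 0 over the knockout libraries. The part of read splitting in the KRT16 and KRT17 values was not tested. Without parental replicate 2, parental replicate 3 or knockout replicate 2 the number of risers in the group was 3 instead of 5.

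Mucins and other secreted airway products fell. Of 23 tested members 19 fell, 2 rose (CREB3L1 and FCGBP) and 2 did not pass, with a median log2 fold change of -4.50. MUC5B, a gel-forming airway mucin, measured 7.37, 2.74 and 7.02 TPM in parental and 0.118, 0.145 and 0.132 TPM in knockout cells (log2 fold change -5.90 ± 0.39, edgeR adjusted p = 2.8e-06). GALNT5, which starts mucin-type glycans, had 801 reads in the 3 parental libraries and 0 in the 3 knockout libraries, at least 259-fold lower against a floor of 3 reads over the group. AGR2, the disulfide isomerase needed to fold mucins, measured 219, 137 and 144 TPM against 4.80, 2.25 and 0 TPM (log2 fold change -5.45 ± 0.85, edgeR adjusted p = 7.7e-04). The fall was present in each knockout library for these genes, with replicate 3 at or near the lowest value for AGR2. Of 18 tested retinoid genes 7 fell, 1 rose and 10 did not pass, with a median of -0.34. The 44.4% called is near the 43.5% of all genes. ALDH1A3, which makes retinoic acid, measured 94.5, 52.0 and 51.2 TPM against 7.04, 3.85 and 1.35 TPM (log2 fold change -3.61 ± 0.78, edgeR adjusted p = 0.0046).

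The extracellular matrix moved the other way. Of 32 tested collagen chains 22 rose, 1 fell (COL17A1, a call lost with no filter on low counts) and 9 did not pass, with a median log2 fold change of 1.79. Without knockout replicate 3 the number that fell was 2. COL8A2, a short-chain network collagen, measured 0.0568, 0.00900 and 0.118 TPM in parental and 10.3, 15.6 and 30.3 TPM in knockout cells (log2 fold change 8.97 ± 0.58, edgeR adjusted p = 2.7e-06). COL3A1, a fibrillar collagen of soft tissue, measured 0.340, 0.158 and 0.297 TPM against 21.2, 22.6 and 216 TPM (log2 fold change 8.62 ± 1.05, edgeR adjusted p = 2.0e-04). COL1A1, the main fibrillar collagen of bone and skin, measured 22.3, 12.5 and 12.8 TPM against 94.0, 84.3 and 108 TPM (log2 fold change 3.12 ± 0.25, edgeR adjusted p = 7.2e-06). All 3 knockout libraries exceeded all parental libraries in these chains, and COL3A1 in replicate 3 stood about an order of magnitude above replicates 1 and 2. Of 7 tested markers of fibroblasts 5 rose, none fell and 2 did not pass, and COL1A1 and COL3A1 are themselves among those that rose. The summed level of the markers went from 32.5 to 63.5 CPM in parental to 397, 440 and 1034 CPM in knockout cells. Most of the knockout sum came from these collagens, so it is not separate from the values above. COL1A1 had 8753, 10764 and 7528 reads and COL3A1 2972, 4158 and 26710 in knockout libraries. PDGFRB, also a marker that rose, had 1309, 941 and 2629 reads there. PDGFRA had 29, 39 and 39 reads in parental and 117, 108 and 245 in knockout libraries. THY1 had 6, 10 and 11 against 110, 80 and 114 reads. The remaining fibroblast markers had few reads or did not pass. COL1A2 had 52, 26 and 15 reads in parental and 17, 36 and 17 reads in knockout libraries, FAP had 5, 9 and 6 against 6, 10 and 2 reads, and DCN had at most 20 reads in any of these libraries. LUM had 651, 386 and 269 reads in parental and 662, 604 and 121 reads in knockout libraries. Summed markers of blood cells went from 15.0 to 21.5 CPM in parental to 9.06 to 12.7 CPM in knockout libraries, with CD3E and ITGAM at 0 reads in all 3 knockout libraries, and those of endothelium from 5.30 to 9.86 CPM to 4.76 to 5.06 CPM. Summed neuroendocrine markers went from 0.307 to 1.00 CPM in parental to 3.64, 3.45 and 6.53 CPM in knockout libraries, with CHGA and INSM1 at 0 reads in all 3 knockout libraries. The part of other cells in the rise was not tested.

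Basement membrane and matrix glycoproteins rose more often than they fell, with 20 of 42 higher, 9 lower and 13 not passed and a median of 1.14. SPARC (ENSG00000113140.10, chr5:151661096-151687165, minus strand), a collagen-binding matricellular protein, measured 136, 133 and 94.0 TPM in parental and 1844, 1813 and 3092 TPM in knockout cells (log2 fold change 4.44 ± 0.27, edgeR adjusted p = 1.6e-06). In BRM-knockout cells SPARC stood at 3.70, 2.57 and 1.23 TPM, and the knockouts differed by a log2 value of 9.83 ± 0.34 (edgeR adjusted p = 9.9e-08). FBLN1, the elastic-fibre protein fibulin, measured 5.95, 3.43 and 4.45 TPM against 278, 239.9 and 422 TPM (log2 fold change 6.26 ± 0.30, edgeR adjusted p = 4.9e-07). In both, the lowest knockout library lay more than an order of magnitude above the highest parental library. MATN2, a matrix filament protein, measured 1.67, 0.836 and 0.961 TPM against 25.2, 40.6 and 38.7 TPM (log2 fold change 4.92 ± 0.39, edgeR adjusted p = 7.9e-06). Among matrix proteases and their inhibitors 15 of 36 rose, 5 fell and 16 did not pass, and 8 fell without knockout replicate 3. The share called was 55.6%, against 43.5% of all genes. MMP2, a gelatinase, measured 0.693, 0.916 and 0.262 TPM against 30.8, 24.1 and 10.8 TPM (log2 fold change 6.21 ± 0.50, edgeR adjusted p = 9.1e-06). ADAMTS9, a versican-cleaving protease, had 35 reads over the parental and 6962 over the knockout libraries (log2 fold change 7.68 ± 0.57, edgeR adjusted p = 2.6e-05).

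Contractile and adhesion genes changed in both directions, more often upwards. Of 33 genes of the smooth muscle actin cytoskeleton 16 rose, 4 fell and 13 did not pass, with a median of 0.46. MYL9, the regulatory light chain of smooth muscle myosin, measured 10.8, 7.68 and 7.22 TPM in parental and 125, 207 and 317 TPM in knockout cells (log2 fold change 4.77 ± 0.42, edgeR adjusted p = 1.8e-05). TAGLN, an actin-bundling protein of smooth muscle, measured 2.49, 4.38 and 2.40 TPM against 31.1, 52.0 and 57.0 TPM (log2 fold change 4.02 ± 0.28, edgeR adjusted p = 3.2e-06). CNN1, calponin, had 3 reads in the parental libraries and 1454 in the knockout libraries, a ratio of 500.1 with a 95% counting interval of 171 to 2428. Replicate 3 was highest in MYL9 and TAGLN. Among focal adhesion genes 22 of 41 rose, 7 fell and 12 did not pass, with a median of 0.62. The integrin adaptor PARVB measured 0.603, 0.228 and 0.183 TPM against 9.69, 13.2 and 10.2 TPM (log2 fold change 5.04 ± 0.44, edgeR adjusted p = 1.2e-05). TNS4, a tensin of epithelial cells, went the other way, at 70.0, 79.6 and 67.0 TPM against 3.99, 3.56 and 0.279 TPM (log2 fold change -4.49 ± 0.76, edgeR adjusted p = 0.0013).

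Of 31 tested mesenchymal and mesodermal transcription factors 10 rose, 5 fell and 16 did not pass. The 48.4% called is near the 43.5% of all genes. SNAI1, the zinc finger repressor of E-cadherin, measured 15.2, 18.8 and 17.3 TPM in parental and 131, 84.3 and 70.6 TPM in knockout cells (log2 fold change 2.69 ± 0.42, edgeR adjusted p = 6.3e-04). FOXC1, a forkhead factor of mesenchyme, measured 36.5, 34.8 and 32.8 TPM against 0.948, 1.09 and 0.539 TPM (log2 fold change -5.11 ± 0.31, edgeR adjusted p = 1.6e-06). SNAI1 and FOXC1 thus changed in opposite directions, each without overlap between the groups, as in most called genes.

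**Figure D2:**
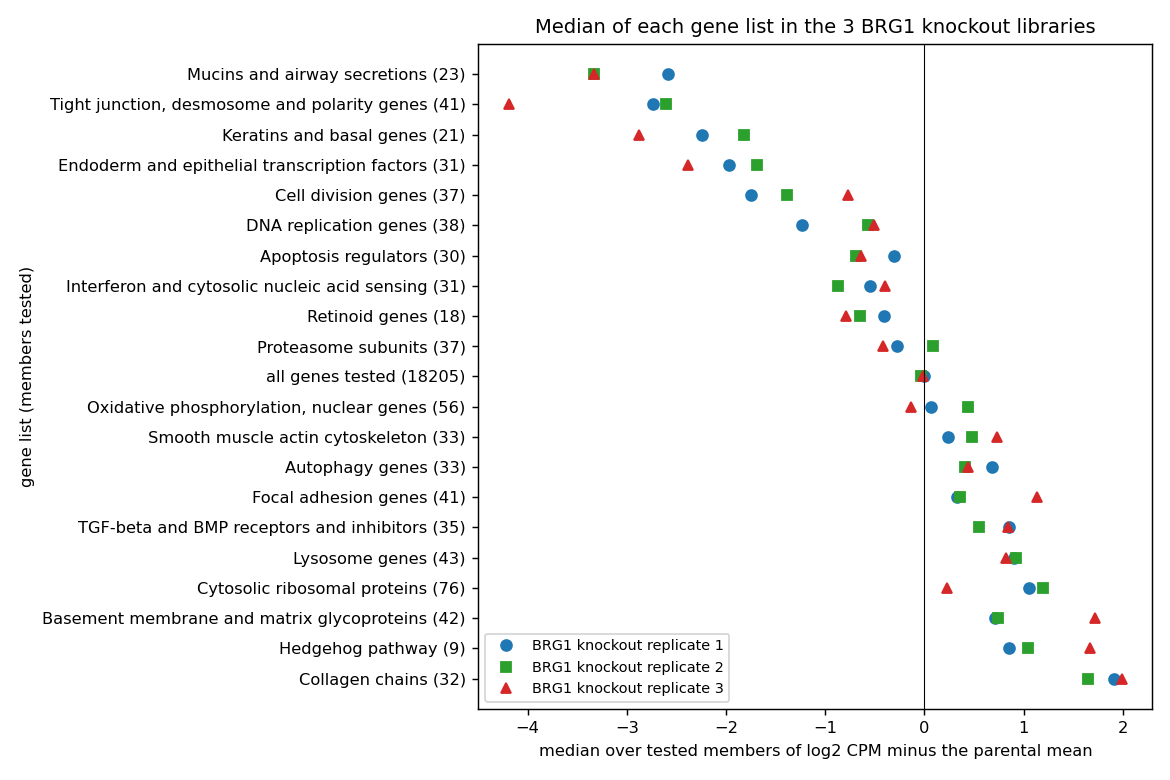
Median over the tested members of log2 CPM (prior count 2) minus the parental mean, for 20 gene lists and all genes tested, in BRG1-knockout replicates 1, 2 and 3. Replicate 3 lies apart for tight junction genes (-4.19 against -2.74 and -2.61), cytosolic ribosomal proteins (0.23 against 1.06 and 1.20) and cell division genes (-0.77 against -1.75 and -1.39).

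Receptors and ligands for growth signals changed in both directions. Of 29 tested receptor tyrosine kinases 13 rose, 7 fell and 9 did not pass (69.0% called, against 43.5% of all genes). FGFR1, the fibroblast growth factor receptor of mesenchyme, measured 2.52, 4.74 and 3.35 TPM in parental and 37.2, 58.4 and 62.2 TPM in knockout cells (log2 fold change 4.03 ± 0.34, edgeR adjusted p = 1.1e-05). FGFR2, its counterpart in epithelium, measured 3.55, 4.26 and 3.27 TPM against 0.173, 0.287 and 0.402 TPM (log2 fold change -3.42 ± 0.29, edgeR adjusted p = 1.1e-05). The 2 receptors thus stood at comparable levels in parental cells, and FGFR1 lay far above FGFR2 in each knockout library. PDGFRB, the platelet-derived growth factor receptor of stromal cells, measured 1.24, 0.0966 and 0.266 TPM against 9.54, 4.98 and 19.3 TPM (log2 fold change 6.35 ± 0.47, edgeR adjusted p = 5.2e-06). Its change was larger in reads than in TPM, with 25, 14 and 22 reads in parental and 1309, 941 and 2629 in knockout libraries. ERBB3, a neuregulin receptor, measured 37.1, 23.2 and 27.7 TPM against 1.89, 1.46 and 0.197 TPM (log2 fold change -4.48 ± 0.82, edgeR adjusted p = 0.0020).

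Of 55 tested secreted growth factors 25 rose, 17 fell and 13 did not pass. AREG, the EGF receptor ligand amphiregulin, measured 461, 215 and 253 TPM in parental and 4.82, 4.92 and 0.497 TPM in knockout cells (log2 fold change -6.24 ± 0.75, edgeR adjusted p = 1.9e-04). INHBB, a subunit of activin B, measured 58.7, 45.6 and 52.97 TPM against 2.05, 1.10 and 0.0937 TPM (log2 fold change -5.35 ± 0.74, edgeR adjusted p = 4.0e-04). WNT5B, a non-canonical Wnt ligand, rose from 13 reads over the parental libraries to 482 over the knockout libraries (log2 fold change 5.23 ± 0.51, edgeR adjusted p = 2.5e-05). AREG and INHBB were low in all 3 knockout libraries and lowest in replicate 3. Feedback genes of the MAPK cascade fell in 11 of 29 cases, rose in 2 and did not pass in 16. At 44.8% called, this list lay near the 43.5% of all genes, and the activity of the cascade was not tested. Without parental replicate 1 the number that rose was 4. DUSP6, a phosphatase that switches off ERK, measured 81.1, 80.7 and 60.4 TPM against 12.9, 7.29 and 14.7 TPM (log2 fold change -2.50 ± 0.24, edgeR adjusted p = 2.4e-05). DUSP1, an immediate early phosphatase, went the other way, at 5.91, 7.12 and 7.10 TPM against 38.5, 20.4 and 23.8 TPM (log2 fold change 2.23 ± 0.32, edgeR adjusted p = 3.2e-04).

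In the TGF-beta and BMP pathways 20 of 35 receptors and inhibitors rose, 4 fell and 11 did not pass, with a median of 0.77. NOG, the secreted BMP antagonist noggin, measured 0.103, 0.649 and 0.294 TPM in parental and 13.5, 13.3 and 18.6 TPM in knockout cells (log2 fold change 5.59 ± 0.48, edgeR adjusted p = 1.2e-05). ENG, the co-receptor endoglin, measured 10.4, 4.77 and 3.72 TPM against 86.2, 46.6 and 67.4 TPM (log2 fold change 3.60 ± 0.40, edgeR adjusted p = 7.5e-05). BMPR1B, a type I BMP receptor, measured 7.22, 4.89 and 5.11 TPM against 0.333, 0.606 and 0.688 TPM (log2 fold change -2.64 ± 0.33, edgeR adjusted p = 1.2e-04). Each of these had groups that did not overlap, as in most called genes. Of 9 tested Hedgehog pathway genes 6 rose, none fell and 3 did not pass, and 5 rose without knockout replicate 3. GLI1, a target and effector of the pathway, stood at 0.0570, 0.322 and 0.114 TPM against 1.36, 2.33 and 1.45 TPM (log2 fold change 3.91 ± 0.38, edgeR adjusted p = 2.7e-05), and HHIP, its ligand-trapping inhibitor, rose from 31 to 367 reads (log2 fold change 3.55 ± 0.67, edgeR adjusted p = 0.0016). NOTUM, an enzyme that inactivates Wnt ligands, measured 0.528, 0.365 and 0.346 TPM against 17.5, 10.8 and 22.9 TPM (log2 fold change 5.45 ± 0.32, edgeR adjusted p = 1.3e-06). Among IGF-binding proteins, IGFBP5 measured 0.119, 0.185 and 0.252 TPM against 23.7, 15.6 and 87.5 TPM (log2 fold change 8.96 ± 0.70, edgeR adjusted p = 1.2e-05).

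Complement and coagulation genes, which include plasma proteins made mainly by the liver, changed in both directions. Of 37 tested genes of complement and coagulation 17 rose, 9 fell and 11 did not pass, with a median of 1.02. SERPINA1 (ENSG00000197249.13, chr14:94376747-94390693, minus strand), alpha-1-antitrypsin, measured 0.589, 0.988 and 0.303 TPM in parental and 242, 196 and 172 TPM in knockout cells (log2 fold change 8.81 ± 0.58, edgeR adjusted p = 4.5e-06). SERPINF1, the secreted serpin PEDF, measured 1.56, 0.853 and 0.872 TPM against 36.3, 95.8 and 57.4 TPM (log2 fold change 6.24 ± 0.58, edgeR adjusted p = 3.1e-05). Coagulation factor F5 went the other way, with 1282 reads over the parental and 1 over the knockout libraries, a ratio of 1243 with a 95% counting interval of 223 to 49110.

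Sensors of cytosolic nucleic acid and interferon genes gave 15 of 31 lower, 9 higher and 7 not passed. The 9 risers became 4 without parental replicate 2, without parental replicate 3 or without knockout replicate 1. AIM2, the inflammasome sensor of cytosolic DNA, measured 15.4, 17.7 and 15.3 TPM in parental and 0.194, 0.137 and 0 TPM in knockout cells (log2 fold change -6.85 ± 0.50, edgeR adjusted p = 4.6e-06). OAS1, a sensor of double-stranded RNA, measured 18.6, 11.6 and 12.2 TPM against 2.08, 1.09 and 0.308 TPM (log2 fold change -3.37 ± 0.57, edgeR adjusted p = 0.0011). B2M, the light chain of MHC class I, rose from 1758, 1516 and 1437 TPM to 4328, 3034 and 3104 TPM (log2 fold change 1.33 ± 0.21, edgeR adjusted p = 5.2e-04). Apoptosis regulators fell in 14 of 30 cases, rose in 5 and did not pass in 11 (63.3% called, against 43.5% of all genes). BIK, a BH3-only killer protein, measured 17.4, 16.8 and 14.4 TPM against 0.562, 0.633 and 0 TPM (log2 fold change -5.02 ± 0.63, edgeR adjusted p = 1.4e-04), and BMF, another BH3-only protein, measured 3.16, 2.74 and 2.73 TPM against 27.5, 19.3 and 28.9 TPM (log2 fold change 3.58 ± 0.21, edgeR adjusted p = 1.3e-06). The death receptor FAS measured 4.02, 4.79 and 3.97 TPM against 0.349, 0.470 and 1.02 TPM (log2 fold change -2.83 ± 0.26, edgeR adjusted p = 1.6e-05).

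Lysosome genes, which encode the degradative enzymes and membrane proteins of the lysosome, rose in 27 of 43 cases, fell in 3 (CTSS, NPC1 and MITF) and did not pass in 13, with a median of 0.87. The MITF call was lost in 9 of 20 alternatives, among them leaving out any 1 parental library, knockout replicate 1 or 2, or BRM-knockout replicate 3, and the NPC1 call was lost with replicate 3 alone. Here the 3 knockout libraries moved alike, with list medians of 0.90, 0.92 and 0.82 relative to the parental mean. TFEB, the transcription factor that activates lysosome genes, measured 3.58, 1.45 and 1.52 TPM in parental and 8.19, 12.5 and 15.7 TPM in knockout cells (log2 fold change 2.69 ± 0.36, edgeR adjusted p = 2.0e-04). CTSF, cathepsin F, measured 12.4, 6.93 and 8.84 TPM against 66.3, 59.2 and 48.3 TPM (log2 fold change 2.83 ± 0.32, edgeR adjusted p = 6.6e-05). Among autophagy genes 16 of 33 rose, 5 fell and 12 did not pass (63.6% called, against 43.5% of all genes). MAP1LC3B, the LC3 protein that coats autophagosomes, measured 32, 34.3 and 32.9 TPM against 92.6, 83.8 and 132 TPM (log2 fold change 1.81 ± 0.17, edgeR adjusted p = 1.8e-05).

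Among abundant transcripts, by the rise in mean TPM, ferritin genes gained. FTL, the ferritin light chain that stores iron, measured 1666, 1598 and 1488 TPM in parental and 6478, 5396 and 4362 TPM in knockout cells (log2 fold change 1.98 ± 0.24, edgeR adjusted p = 9.8e-05). FTH1, the heavy chain, measured 5559, 4661 and 5172 TPM against 9368, 8430.3 and 6272 TPM (log2 fold change 0.94 ± 0.22, edgeR adjusted p = 0.0051), a call that was lost with replicate 3 alone. Abundant transcripts that fell included S100A6, a calcium-binding protein, at 3280.2, 2162 and 2777 TPM against 537, 502 and 400.1 TPM (log2 fold change -2.31 ± 0.24, edgeR adjusted p = 3.8e-05), and DHRS2, a mitochondrial and nuclear reductase, at 1663, 2601 and 3009 TPM against 433, 356 and 355 TPM (log2 fold change -2.52 ± 0.23, edgeR adjusted p = 1.6e-05). HMGA1, an architectural chromatin protein of growing cells, measured 2127, 1769 and 1626 TPM against 214, 234 and 168 TPM (log2 fold change -2.95 ± 0.35, edgeR adjusted p = 9.3e-05). GSTP1, a glutathione transferase, measured 1449, 1255 and 1362 TPM against 225, 295 and 187 TPM (log2 fold change -2.28 ± 0.24, edgeR adjusted p = 4.5e-05). Both ferritin genes have processed pseudogenes, so the split of their reads is uncertain. Each of the abundant genes that fell lay below the parental libraries in all 3 knockout libraries.

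Cytosolic ribosomal protein genes differed between the knockout replicates. Of 76 members 58 rose, none fell and 18 did not pass, with list medians of 1.06, 1.20 and 0.23 in replicates 1, 2 and 3. Without replicate 3, 71 rose and none fell, while replicate 3 set alone against the parental libraries gave 13 that rose and 3 that fell. Without replicate 1 or replicate 2 the number that rose was 36 and 37. RPL26 measured 2499, 2519 and 2354 TPM in parental and 7274, 7242 and 5572 TPM in knockout cells (log2 fold change 1.64 ± 0.21, edgeR adjusted p = 1.6e-04). RPL37 measured 2144, 1451 and 1338 TPM against 4148, 3776 and 1811 TPM (log2 fold change 1.24 ± 0.33, edgeR adjusted p = 0.011), and its call was lost without replicate 1, without replicate 2 and with replicate 3 alone. In RPL37, replicate 3 lay within the parental range. Ribosomal protein genes have many processed pseudogenes with near-identical sequence, so the split of reads between them is uncertain.

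Of 37 tested cell division genes 11 fell (29.7%, against 21.9% of all genes), none rose and 26 did not pass, with list medians of -1.75, -1.39 and -0.77 in replicates 1, 2 and 3. ANLN, the scaffold anillin of the cleavage furrow, measured 104, 256 and 191 TPM in parental and 19.4, 23.1 and 57.9 TPM in knockout cells (log2 fold change -2.15 ± 0.52, edgeR adjusted p = 0.0078). ECT2, the exchange factor that starts cytokinesis, measured 56.6, 67.9 and 62.2 TPM against 10.2, 9.76 and 27.9 TPM (log2 fold change -1.81 ± 0.41, edgeR adjusted p = 0.0052). Among the 11 that fell the median level was 24.5%, 31.3% and 50.1% of the parental mean. In 11 of 11 replicate 3 was the highest of the knockout libraries, against 1511 of the 3984 genes that fell. Replicate 3 set alone against the parental libraries gave 0 members past the edgeR adjusted threshold and 0 with an unadjusted p under 0.05. The count depended on single libraries: it was 5 without parental replicate 2 or 3, 6 without knockout replicate 1 or 2, 16 without knockout replicate 3, 21 without BRM-knockout replicate 1 and 34 without BRM-knockout replicate 2. The BRM-knockout libraries share the fit, and the cause of these shifts was not tested. DNA replication genes fell in 16 of 38 cases, rose in none and did not pass in 22, with 10 lower without parental replicate 3 and 5 with knockout replicate 3 alone. TK1, thymidine kinase, measured 222, 301 and 309.6 TPM against 45.3, 84.5 and 104.6 TPM (log2 fold change -1.47 ± 0.32, edgeR adjusted p = 0.0039). POLA2, a subunit of the primase complex, measured 32.7, 48.6 and 42.3 TPM against 9.76, 11.5 and 16.3 TPM (log2 fold change -1.63 ± 0.27, edgeR adjusted p = 8.0e-04). Both fell in every knockout library, and both were least reduced in replicate 3.

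Epigenetic regulators changed in both directions. Of 37 tested Polycomb and trithorax genes 7 rose, 7 fell and 23 did not pass. Of 13 tested DNA methylation genes 2 rose, 4 fell and 7 did not pass. The shares called were 37.8% and 46.15%, around the 43.5% of all genes. The de novo DNA methyltransferase DNMT3B measured 11.7, 8.52 and 9.04 TPM in parental and 0.631, 0.926 and 1.69 TPM in knockout cells (log2 fold change -3.12 ± 0.38, edgeR adjusted p = 1.2e-04). EZH2, the methyltransferase of Polycomb complex PRC2 that opposes SWI/SNF at many genes, measured 24.4, 37.8 and 37.0 TPM against 8.90, 10.9 and 15.3 TPM (log2 fold change -1.31 ± 0.20, edgeR adjusted p = 4.1e-04). H19, an imprinted non-coding RNA, rose from 11.7, 11.2 and 11.9 TPM to 145, 216 and 267 TPM (log2 fold change 4.23 ± 0.29, edgeR adjusted p = 3.2e-06), and its neighbour IGF2, a growth factor, rose from 2.11, 2.33 and 2.10 TPM to 9.64, 7.53 and 6.27 TPM (log2 fold change 1.84 ± 0.26, edgeR adjusted p = 3.0e-04). PHLDA2, an imprinted growth inhibitor of the placenta, measured 396, 291 and 247 TPM against 22.9, 52.2 and 34.7 TPM (log2 fold change -2.85 ± 0.36, edgeR adjusted p = 1.5e-04). Imprinted genes as a list gave 7 of 19 higher, 5 lower and 7 not passed (63.2% called, against 43.5% of all genes). The number lower was 3 without knockout replicate 1 and 8 without knockout replicate 3.

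Splicing regulators included the epithelial factors ESRP1 and ESRP2, RNA-binding proteins that enforce the epithelial pattern of exon choice. Of 45 tested splicing regulators 10 rose, 13 fell and 22 did not pass, and 6 rose without parental replicate 2. The share called was 51.1%, against 43.5% of all genes. ESRP1 measured 105.07, 112 and 115 TPM in parental and 9.22, 7.85 and 0.0939 TPM in knockout cells (log2 fold change -3.96 ± 1.04, edgeR adjusted p = 0.013), a call that was lost with no filter on low counts. ESRP2 (ENSG00000103067.13, chr16:68229111-68238102, minus strand) measured 21.4, 23.6 and 22.1 TPM against 1.59, 1.64 and 0.364 TPM (log2 fold change -4.05 ± 0.49, edgeR adjusted p = 1.5e-04). Both fell in every knockout library, and replicate 3 had the least of each. KHDRBS3, a STAR-family splicing factor, measured 15.0, 20.5 and 18.8 TPM against 1.21, 1.497 and 3.39 TPM (log2 fold change -3.42 ± 0.25, edgeR adjusted p = 4.2e-06), and here replicate 3 was the highest knockout library.

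Exon use was read from the transcripts. The inclusion of an internal exon is the TPM of the transcripts that hold it, as a percentage of these plus the transcripts whose intron spans it. Of 13983 exons tested in 5455 genes, 319 exons in 237 genes were called (limma adjusted p under 0.05), which is 2.28% of exons tested, 206 of them less and 113 more included in knockout cells. Among the called exons 153 changed by at least 20 percentage points, and 57.1% had a length divisible by 3, against 42.3% of exons tested. In a list of 44 genes with tested exons known as targets of ESRP proteins or of epithelial-mesenchymal transition, 28 of 177 exons (15.8%) were called, 22 less and 6 more included. The number of calls was 67 to 170 when any library other than knockout replicate 3 was left out and 2204 without knockout replicate 3, and 51 exons were called in all 10 alternatives run.

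The 10 exons shown next were called in all 10 alternatives, are coding, are at most 150 bases long with a length divisible by 3, and changed by at least 20 points. They are printed because each adds or removes a stretch of protein without a frame shift. Capitals mark the alternative exon and lower case the 12 bases of the neighbouring exons on each side, 5′ to 3′ on the gene's strand, as spliced in the including transcript of GENCODE release 29. Positions are of the exon in hg38.
CD44, chr11:35209965-35210054, plus strand: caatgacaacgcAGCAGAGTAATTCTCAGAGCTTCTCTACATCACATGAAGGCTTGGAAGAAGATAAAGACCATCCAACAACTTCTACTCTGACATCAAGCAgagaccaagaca
SPTAN1, chr9:128592983-128593042, plus strand: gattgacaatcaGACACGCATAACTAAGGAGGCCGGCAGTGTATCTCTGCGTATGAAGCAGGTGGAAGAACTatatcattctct
ADD3, chr10:110132305-110132400, plus strand: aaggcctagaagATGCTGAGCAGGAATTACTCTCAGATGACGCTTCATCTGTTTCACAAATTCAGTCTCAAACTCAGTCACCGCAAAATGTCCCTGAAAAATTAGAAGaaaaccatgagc
ESYT2, chr7:158752781-158752843, minus strand: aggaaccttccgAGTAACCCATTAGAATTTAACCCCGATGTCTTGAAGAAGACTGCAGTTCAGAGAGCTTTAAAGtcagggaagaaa
TUFT1, chr1:151562091-151562165, plus strand: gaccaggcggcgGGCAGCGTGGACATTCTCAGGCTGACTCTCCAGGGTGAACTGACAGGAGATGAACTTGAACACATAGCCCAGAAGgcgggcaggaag
SGSM2, chr17:2367271-2367405, plus strand: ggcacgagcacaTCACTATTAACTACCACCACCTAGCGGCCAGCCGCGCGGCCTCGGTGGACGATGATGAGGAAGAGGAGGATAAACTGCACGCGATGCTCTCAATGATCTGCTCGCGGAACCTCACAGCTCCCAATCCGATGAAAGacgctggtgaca
TSC2, chr16:2077598-2077726, plus strand: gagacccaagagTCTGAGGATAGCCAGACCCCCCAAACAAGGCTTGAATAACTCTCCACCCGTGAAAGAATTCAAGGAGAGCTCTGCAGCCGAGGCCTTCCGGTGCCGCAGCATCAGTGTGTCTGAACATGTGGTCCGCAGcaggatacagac
DNM2, chr19:10808569-10808580, plus strand: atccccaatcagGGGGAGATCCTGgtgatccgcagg
RAC1, chr7:6398662-6398718, plus strand: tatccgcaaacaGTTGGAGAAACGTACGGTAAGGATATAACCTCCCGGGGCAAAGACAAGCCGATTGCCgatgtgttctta
LAS1L, chrX:65524564-65524614, minus strand: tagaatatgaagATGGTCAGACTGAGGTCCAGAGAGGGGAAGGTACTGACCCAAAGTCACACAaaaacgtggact

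CD44, the hyaluronan receptor, lost a 90-base exon of its variable region. Its inclusion was 79.9%, 77.7% and 80.4% in parental replicates 1, 2 and 3 and 5.50%, 1.93% and 0.219% in knockout replicates 1, 2 and 3 (change of -76.8 points, limma adjusted p = 0.0030). For SPTAN1, the spectrin of non-erythroid cells, the values were 94.7%, 95.1% and 96.8% against 30.3%, 38.8% and 34.1% (change of -61.1 points, limma adjusted p = 0.0015). ADD3, an adducin that caps actin at the membrane skeleton, gave 46.2%, 50.7% and 51.7% against 4.23%, 3.93% and 5.93% (change of -44.8 points, limma adjusted p = 5.9e-04). In CD44 replicate 3 was lowest, whereas in SPTAN1 and ADD3 the knockout replicates showed no such order. In BRM-knockout cells these 3 exons had mean inclusions of 81.5%, 97.8% and 48.1%, near the parental means of 79.4%, 95.5% and 49.5%.

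RAC1, a GTPase that drives membrane ruffling, has a 57-base exon that makes the self-activating form Rac1b. Inclusion of this exon was 30.2%, 27.5% and 30.9% in parental and 3.82%, 2.82% and 3.23% in knockout cells (change of -26.3 points, limma adjusted p = 0.0015). DNM2, the dynamin that cuts endocytic vesicles, has a 12-base exon at 69.8%, 63.9% and 65.5% against 34.9%, 35.2% and 36.6% (change of -30.8 points, limma adjusted p = 0.0052). The TSC2 exon, in the tuberin brake on mTORC1, was included at 39.7%, 41.8% and 32.5% against 6.77%, 6.45% and 4.29% (change of -32.2 points, limma adjusted p = 0.0037). The knockout replicates lay within a few points of each other in these 3 exons. ESYT2, TUFT1 and SGSM2 had mean inclusions of 74.5%, 72.7% and 55.1% in parental and 32.5%, 31.2% and 22.5% in knockout cells. LAS1L, a ribosome biogenesis factor, was the 1 printed exon that gained, at 4.35%, 7.39% and 4.92% against 29.8%, 26.9% and 33.9% (change of 24.7 points, limma adjusted p = 0.0074).

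**Figure D3:**
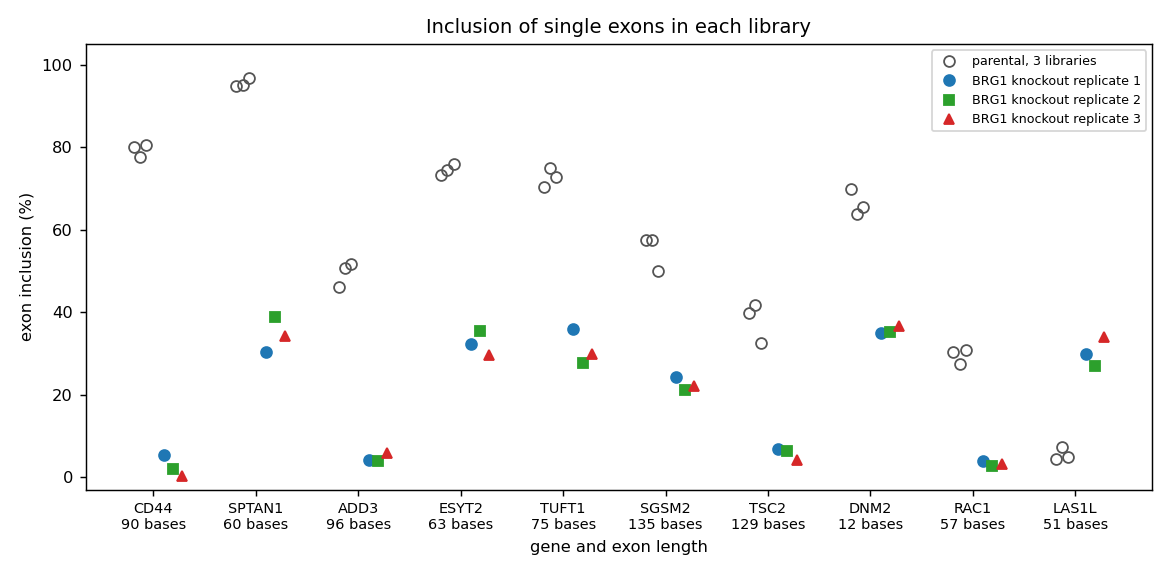
Inclusion in percent of the 10 printed exons, with open circles for the 3 parental libraries and filled symbols for BRG1-knockout replicates 1, 2 and 3. For 9 exons the knockout libraries lie below the parental ones, from CD44 (mean 79.4% against 2.55%) to RAC1 (29.6% against 3.29%), and for LAS1L they lie above (5.55% against 30.2%).

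SMARCA4 itself also changed in exon use among the transcripts that remained. A 99-base exon (chr19:11033767-11033865) was included at 9.41%, 7.04% and 9.86% in parental and 38.2%, 20.04% and 23.3% in knockout cells (limma adjusted p = 0.044). The call was lost in 9 of 10 alternatives, and the knockout values rest on the low level of SMARCA4 given above. The edited site is not named in the labels.

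Transcript shares within genes were tested as well. By edgeR's diffSpliceDGE 923 of 11768 genes (7.84%) and 1070 of 56088 transcripts (1.91%) were called as changed in share. Of these genes 444 (3.77% of those tested) were called by limma's diffSplice too. On simulated data diffSpliceDGE gave 75 false calls beside 27 genes recovered, and the 2 tests together gave 4 false calls. Genes called by diffSpliceDGE only are therefore uncertain. The named transcripts below were called by both. In the list of ESRP and epithelial-mesenchymal splicing targets 24 of 55 genes were called, 17 of them by both tests. RGS3, a regulator of G-protein signalling, switched to the transcript RGS3-232, whose share was 8.76%, 2.62% and 5.66% in parental and 69.3%, 75.2% and 67.7% in knockout cells (diffSpliceDGE adjusted p = 1.6e-04). NUMB-211, of a Notch inhibitor, had a share of 1.64%, 2.87% and 1.73% against 24.9%, 29.3% and 33.7% (diffSpliceDGE adjusted p = 0.016). TCF7L2-222, of a Wnt effector, had 37.7%, 31.7% and 31.5% against 0% in each knockout library (diffSpliceDGE adjusted p = 1.7e-04). The shares did not overlap between groups in these 3 transcripts. CTNND1-201, of the E-cadherin partner p120-catenin, had 2.40%, 3.46% and 2.31% against 27.1%, 16.02% and 47.6% (diffSpliceDGE adjusted p = 0.012), so that the knockout replicates spread widely above the parental ones. Of the 923 genes 450 were also called at gene level, and of the 11768 genes 5385 were. Leaving out knockout replicate 3 raised the 923 to 2344 genes, and leaving out parental replicate 3, knockout replicate 1 or knockout replicate 2 lowered it to 577, 533 and 528. The error of assigning reads to transcripts is not part of these tests.

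Knockout replicate 3 stood apart from replicates 1 and 2. Over all genes the log2 CPM of replicates 1 and 2 correlated at r = 0.981, and replicate 3 correlated at 0.967 and 0.958 with them, as a description across genes. Of 5951 protein-coding genes whose log2 CPM averaged 5 or more over all 9 libraries, 110 lay at least 1 log2 unit above both other replicates in replicate 3 and 103 below, against 3 and 3 for replicate 1 and 10 and 6 for replicate 2. Parental replicate 1 (37 above, 7 below) and BRM-knockout replicate 2 (65 above, 10 below) also stood apart from their groups. The genes furthest above in replicate 3 included SLC13A4, a sulfate transporter, at 10.1, 3.71 and 71.7 TPM in replicates 1, 2 and 3. IGFBP7, a secreted IGF-binding protein, stood at 196, 195 and 1530.2 TPM against 25.4, 22.7 and 19.9 TPM in parental cells. COL12A1, a fibril-associated collagen, stood at 37.6, 38.1 and 123 TPM. Genes furthest below included ITGB6, the beta subunit of an epithelial integrin, at 10.6, 11.7 and 0.186 TPM, and PRAME, a cancer-testis antigen, at 31.0, 26.3 and 0.794 TPM. CLDN4, a tight junction claudin, stood at 29.9, 28.5 and 0.842 TPM. Of these, ITGB6 and PRAME had parental levels of 12.8 to 21.1 TPM and 0.0380 to 0.234 TPM, so replicate 3 was far below parental in the first and still above it in the second. UBASH3B, a tyrosine phosphatase, went from 5.13, 6.14 and 5.36 TPM in parental to 1.43, 1.40 and 10.9 TPM in knockout cells, and its log2 fold change of 0.40 ± 0.57 (edgeR adjusted p = 0.60) became -0.87 without replicate 3. Whether the library, the culture or the cells of replicate 3 differ was not tested.

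**Figure D4:**
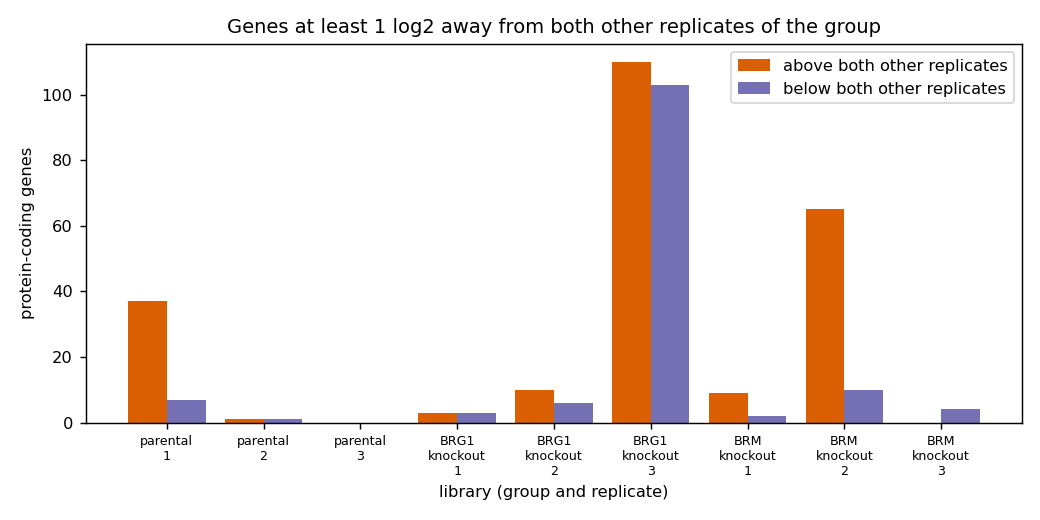
Number of protein-coding genes, of 5951 whose log2 CPM averages 5 or more over all 9 libraries, that lie at least 1 log2 unit above (orange) or below (violet) both other replicates of the group, for each of the 9 libraries. BRG1-knockout replicate 3 has 110 above and 103 below.

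By chromosome the changes were uneven. On chromosome 8 the median log2 fold change was -0.41, with 250 of 649 tested genes lower and 73 higher, and on chromosome 11 it was -0.27, with 313 of 972 lower and 159 higher. On chromosome 19 the median was 0.23, with 382 of 1364 higher and 189 lower, and on chromosome 15 it was 0.21, with 196 of 605 higher and 77 lower. The direction held in each knockout library, with medians of -0.37, -0.40 and -0.61 on chromosome 8 and 0.24, 0.32 and 0.12 on chromosome 19. DNA copy number was not measured, and its part in these values was not tested.

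The direct test against the BRM knockout set the knockouts side by side. Of 18205 genes 8252 (45.3%) differed between the knockouts, 3925 higher (21.6%) and 4327 lower (23.8%) in BRG1-knockout cells. Of the 41 junction and polarity genes 39 were lower and 1 higher than in BRM-knockout cells, and of the 76 ribosomal protein genes 34 were higher and none lower. NKX2-1, with 2 reads in the BRG1-knockout libraries, stood at 213, 146 and 225 TPM in BRM-knockout cells. Other genes did not pass in this direct test. GAA, lysosomal alpha-glucosidase, rose from 70.1, 44.8 and 39.6 TPM in parental to 187, 137 and 167 TPM in BRG1-knockout cells and stood at 167, 138 and 177 TPM in BRM-knockout cells, a log2 difference between knockouts of 0.21 ± 0.24 (edgeR adjusted p = 0.51). The transcription factor MAF measured 0.797, 0.358 and 0.281 TPM in parental, 17.6, 17.4 and 30.4 TPM in BRG1-knockout and 36.6, 26.0 and 55.1 TPM in BRM-knockout cells, a log2 difference between knockouts of -0.36 ± 0.37 (edgeR adjusted p = 0.45). FOSL1, an AP-1 subunit, measured 192, 308 and 218 TPM in parental, 42.5, 74.0 and 58.1 TPM in BRG1-knockout and 39.7, 57.4 and 48.9 TPM in BRM-knockout cells, a log2 difference of 0.40 ± 0.26 (edgeR adjusted p = 0.23). Cell division genes were higher in BRG1-knockout than in BRM-knockout cells in 31 of 37 cases and lower in none.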

How the data were processed

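Total RNA of 9 H358 libraries, 3 per group, was sequenced by the submitters. Salmon, DESeq2 and the hg38 build are named in the submitters' processing notes, without versions. The annotation used for Salmon and the library type were not stated in the labels or headers. The authors deposited, per the file headers, an estimated count of reads, a TPM value and an effective length for each transcript. Of 203835 transcripts 203746 were matched by identifier without version to GENCODE release 29, giving 58237 genes, and unmatched transcripts held at most 0.0193% of reads. Estimated counts were summed per gene and rounded. Genes passing edgeR's filterByExpr were fitted with TMM scaling and a robust quasi-likelihood model, 1 mean per group over all 9 libraries (edgeR 4.0.16 in R 4.3.3), with Benjamini-Hochberg adjustment over 18205 genes and a threshold of 0.05. Standard errors were derived from the F statistic. Transcript shares were tested with edgeR's diffSpliceDGE and limma's diffSplice (limma 3.58.1). Exon inclusion was tested with limma on the log2 ratio of including to skipping TPM, each plus 0.1, for exons with a sum of at least 5 TPM in both groups. DESeq2 1.42.0 and limma voom served as alternatives.

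The members and gene lists were chosen with earlier results of these data known. The exon test, the use of transcripts called by both tests, the fit without parental replicate 1 and knockout replicate 3, the fit of knockout replicate 3 alone, and the selection of genes by their mean over 9 libraries for counts of lone replicates were added after seeing the data. Named genes were SMARCA4 and SMARCA2, the 10 largest rises and falls in mean TPM without overlap, up to 4 called members per list by size of fold change, and the 8 genes furthest above and below in replicate 3. ONECUT3, CEBPD, FCGBP, COL17A1, COL1A2, NPC1, MITF, the other marker genes and the genes of printed exons and transcripts outside that rule were chosen after their values were seen. On simulated data with known changes, the gene test recovered 2 of 50 genes changed 1.5-fold, 20 of 50 changed 2-fold, 48 of 50 changed 4-fold and 50 of 50 changed 8-fold, with 7 false calls. For transcript shares changed 8-fold, diffSpliceDGE recovered 27 of 200 genes with 75 false calls, limma 142 with 36 false calls, and both together 27 with 4 false calls. The exon test recovered 86 of 200 exons shifted by 3 log2 units, with 6 false calls. Counting intervals and floors cover counting error only. Some results that met these rules are not reported here.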

Additional observations from a re-analysis of the deposited data

How the results depend on the processing

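The gene counts of both comparisons stayed within 1.5 times under every alternative run. The 7914 genes called against parental ranged from 6150 to 8905 when 1 library was left out, with 2946 to 4015 that rose and 3150 to 5029 that fell, and the 8252 genes called against the BRM knockout ranged from 6480 to 9009. Correction for GC content and length gave 4821 that rose and 3930 that fell. Deviations from the group means correlated at 0.17, -0.02 and 0.07 between same-numbered knockout and parental libraries. Differently numbered libraries of these groups correlated at -0.15 to 0.12. With 3 libraries per group these values cannot decide whether the numbers pair the samples, and the labels do not say. The replicate block gave 7486 called genes, 489 genes by transcript shares and 63 exons. The 923 genes by transcript shares became 583 in a fit of the 6 libraries only, 435 with a mean share of at least 0.1 in a group, 2268 by limma diffSplice, 2020 without parental replicate 1 and knockout replicate 3, and 528 to 2344 when 1 library was left out. The 319 exons became 67 to 2204 when 1 library was left out, the highest without knockout replicate 3. The causes were not tested. Of 109 called genes named in the text 89 kept their call in every alternative run. KRT16 turned to -1.99 with knockout replicate 3 alone, and UBASH3B ranged from -0.87 (without that library) to 0.69 when 1 library was left out and turned to -1.096 without it and parental replicate 1. In the simulation genes changed by 2-fold or less were often missed. Only 50 genes were changed at each fold there, far fewer than the 7914 called here, so that recovery does not describe this comparison. Among the genes called here, 1440 that rose and 1389 that fell changed by less than 1 log2 unit.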
